A study of Mus musculus with 15 samples.

Results

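The comparison described here is that of the mouse secondary palate at birth (postnatal day 0, P0) with the palate at embryonic day 13.5 (E13.5), the whole span of a 5-stage series. It used the 3 libraries titled for P0 and the 3 titled for E13.5, 6 of the 15 libraries, chosen by their titles and by no measured value. All libraries came from dissected palates of wild-type mice, labelled WT with no allele, treatment or strain named, and every library pools tissue of 3 embryos, so it averages animals and says nothing of any one of them. RNA labelled as total RNA was sequenced in bulk, whether depleted or selected not being given in the sources used here, and of 54232 genes counted, 22151 had enough counts to be tested. The series' stated aims concern gene expression along the developing palate, Wnt signalling in embryos that lack Pax9, and the Wnt antagonist sclerostin; only the wild-type time course was analysed here.

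The secondary palate forms from paired shelves that grow out of the maxillary processes, first downward beside the tongue. The shelves then rise, meet and fuse at the midline, and their mesenchyme, largely of neural crest origin, later makes the bone of the hard palate and the connective tissue around the muscle of the soft palate. The oral face becomes a stratified squamous epithelium and the nasal face a ciliated one with glands, so a palate at birth holds many tissues that the shelf of mid-gestation does not yet hold.

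Between the stages 12535 genes, 56.6% of those tested, passed an adjusted p of 0.05 in edgeR's quasi-likelihood test. Of all tested genes 29.8% were higher at P0 (6592 genes) and 26.8% were lower (5943 genes). With a change of at least 2-fold required besides, 22.4% were higher (4955 genes) and 13.7% lower (3045 genes). Every P0 library lay above every E13.5 library for 30.2% of genes and below for 28.9%. The count for any gene group has to be read against these shares, since a group drawn without regard to its function would already show many calls. Levels are given as CPM, the count divided by the library's adjusted total and scaled to 1000000. In bulk RNA, fewer cells of a type and less RNA per cell cannot be told apart. Nothing in the labels says how the pools were drawn, so the p-values measure the spread between pools, estimated over all 15 libraries. The common coefficient of variation between pools was 0.332 over all stages, 0.275 at E13.5 and 0.458 at P0. In a fit of the 6 libraries alone 5497 genes were higher and 4644 lower.

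The E13.5 libraries held 63652439 to 68401452 counts and the P0 libraries 21470759 to 41245830, which puts the level of 3 counts, taken as the detection floor, at 0.0423 to 0.0446 CPM at E13.5 and 0.0832 to 0.131 CPM at P0. Floors cover counting error only. All 12 markers of palate mesenchyme were detected at both stages. The list holds genes of other connective tissue too, such as Col1a1, so their detection cannot tell palate from neighbouring tissue. Prrx1, a mesenchymal homeobox gene, stood at 385, 289 and 453 CPM at E13.5 and 93.9, 94.7 and 139 CPM at P0. The 3 P0 libraries differed in make-up: the summed level of 20 skeletal muscle markers was 45613, 57682 and 9639.6 CPM in P0 libraries 1, 2 and 3, and P0 library 2 held the most fat and pituitary transcripts, with Ucp1 of brown fat at 243, 1396 and 2.57 CPM and Gh, pituitary growth hormone, at 9.99, 2689 and 69.9 CPM. E13.5 library 2 held lens transcripts, with the crystallin gene Cryba1 at 0.401, 108 and 0.371 CPM. The Y-linked gene Ddx3y was at 0.201, 17.6 and 54.5 CPM at E13.5 and 26.9, 0.152 and 36 CPM at P0, so it was near the floor in 1 pool of each stage and well above it in the others.

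**Figure D1:**
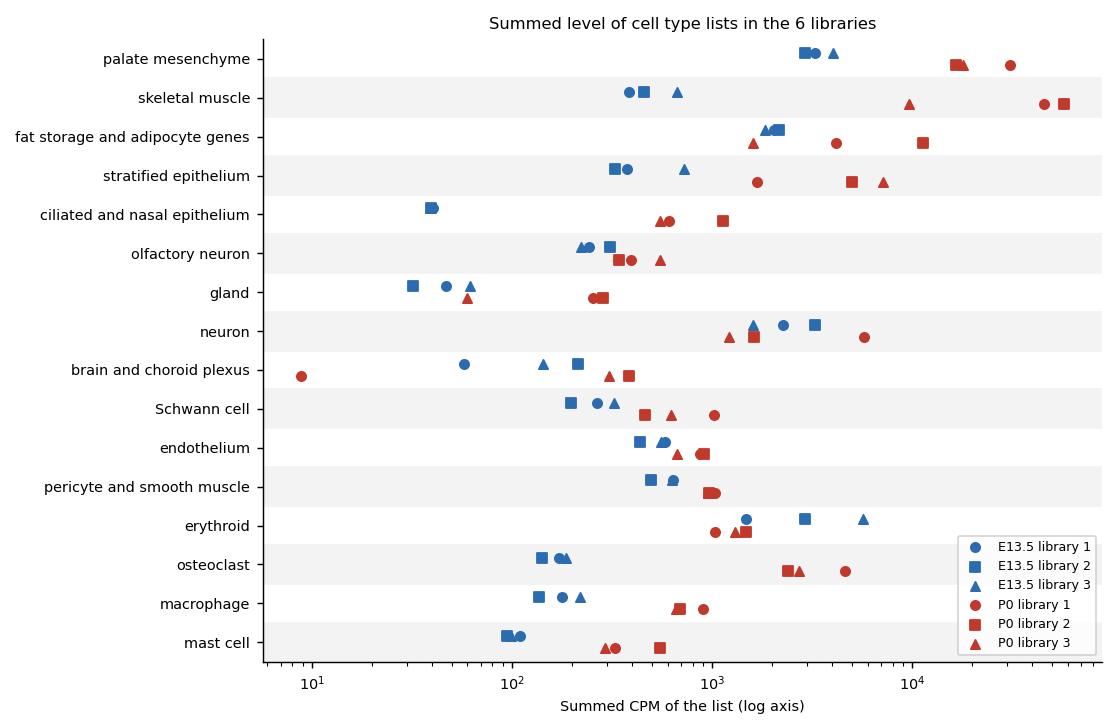
Summed CPM (log axis) of the markers of 13 cell types and of 3 immune or bone-resorbing cell lists in each of the 3 E13.5 libraries (blue) and 3 P0 libraries (red), with 1 symbol per library. Skeletal muscle markers summed to 9639.6 CPM in P0 library 3 and 57682 CPM in P0 library 2, while brain markers overlapped between the stages. A sum weighs abundant members most. The palate mesenchyme sum, which includes Col1a1, was higher at P0, although 6 of its 12 markers fell and 2 rose (median log2 fold change -1.08). The fat row is the fat storage list, which also holds the fatty acid synthesis genes Fasn, Acaca and Elovl6.

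Gene length moved with the stage. Tested genes were put into 5 bins of equal size by exon length. In the bin of the shortest genes (exons of up to 1529 bases) 36.2% were higher at P0 and 14.1% lower, and in that of the longest (at least 6342 bases) 17.7% were higher and 44.7% lower. After a smooth trend on length had been removed from each library, a step added after the data were seen, the shares were 28.1% and 21.1% for the shortest and 27.4% and 28.6% for the longest. What the length trend comes from was not tested. Its removal moved 18 counts of list members and 14 list medians and reversed 1 median, and several of these moves are given beside their lists.

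**Figure D2:**
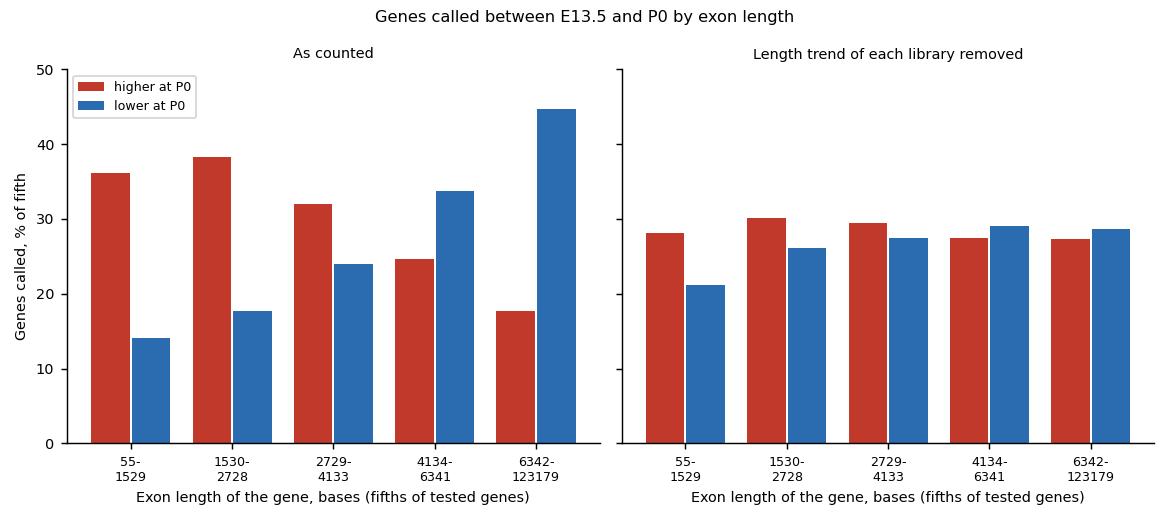
Percent of tested genes called higher (red) or lower (blue) at P0 in 5 bins of exon length in bases, as counted (left) and with the length trend of each library removed (right). As counted, the higher share fell from 36.2% in the shortest bin to 17.7% in the longest, and with the trend removed all higher shares lay between 27.4% and 30.2%.

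The 4 classes of genes examined moved in different proportions. Of 276 tested immune genes 200 (72.5%) were higher at P0 and 14 (5.07%) lower, the median log2 fold change being 2.07. Of 244 matrix genes 137 (56.1%) were higher and 31 lower, with a median of 0.93. Of 790 metabolic and transport genes 421 (53.3%) were higher and 118 lower, with a median of 0.64. Transcription factors went the other way: of 627 tested, 94 were higher and 352 (56.1%) lower, with a median of -0.80. That count was largely of zinc finger genes with a Zfp name, and the other 261 factors split into 85 higher and 71 lower, close to the shares of all genes. A further class, of cell division, chromatin and fetal growth genes, had 13 of 125 higher and 91 (72.8%) lower, with a median of -1.0. The median over all tested genes was 0.03.

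**Figure D3:**
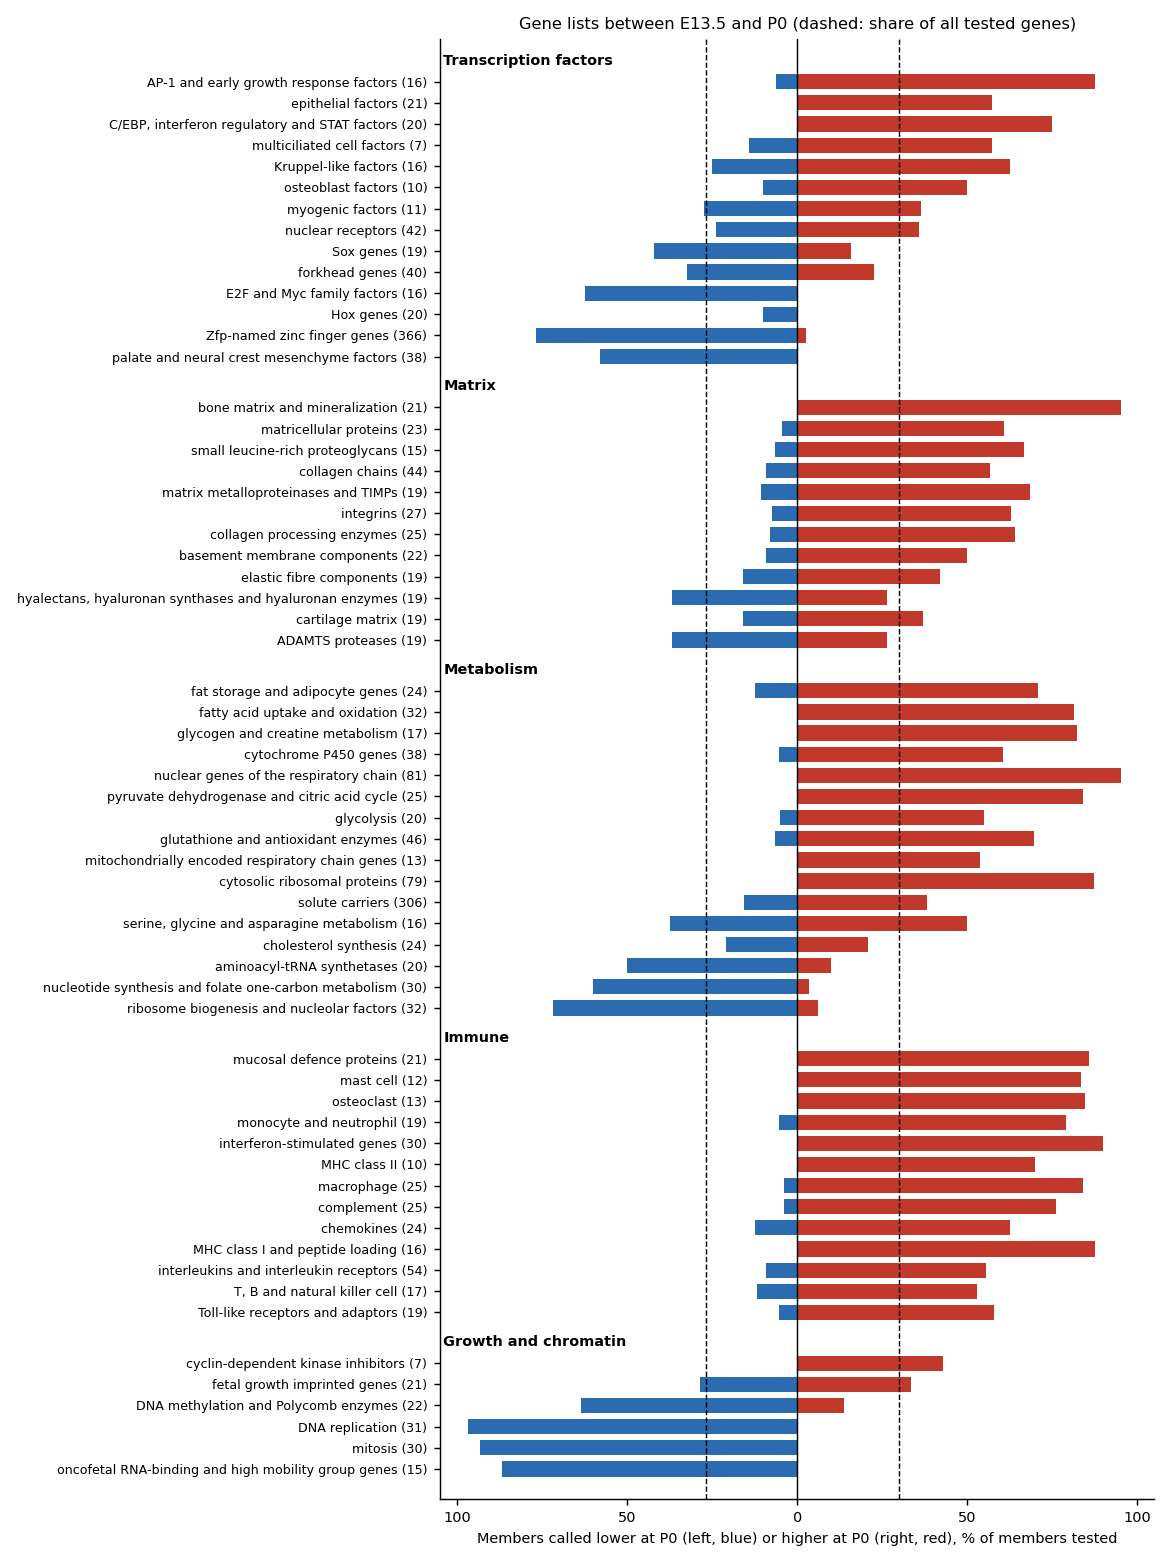
Percent of the tested members of each list called lower (blue, left) or higher (red, right) at P0, with the number tested in parentheses and lists ordered by median within 5 classes; dashed lines mark 26.8% and 29.8%, the shares of all tested genes. DNA replication, mitosis and zinc finger lists lie on the lower side, and bone matrix, respiratory chain, interferon-stimulated and mucosal defence lists on the higher side.

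The largest single rises were in secreted, epithelial, fat and muscle genes. The 12 described here were taken by size among genes of at least 10 CPM whose libraries did not overlap. Mmp13, collagenase-3 of remodelling bone and cartilage (chr9:7272514-7283331, plus strand on GRCm38), stood at 0.143, 0.155 and 0.0743 CPM at E13.5 and 459, 388 and 362 CPM at P0 and was 3172-fold higher (log2 fold change 11.63, SE 1.03, adjusted p = 5.7e-06). All 3 P0 libraries were close to each other and far above E13.5. Krt13, a keratin of the oral mucosa (chr11:100117327-100121566, minus strand), stood at 0.573, 0.324 and 0.342 CPM at E13.5 and 269, 1032 and 1869 CPM at P0, and was 2543-fold higher (adjusted p = 5.0e-06). Its P0 libraries spanned a wide range, with library 3 highest. Dmbt1, a mucosal scavenger receptor, was at 0 counts in every E13.5 library and at 22.8, 35 and 0.653 CPM at P0, at least 450.3-fold higher against the floor. Lipf, a lipase of oral and gastric glands, was at least 1832-fold higher, and AU040972, annotated as an antisense RNA, at least 3185-fold higher. Dcpp1, Dcpp2 and Dcpp3, near-identical salivary protein genes whose reads can be split between copies, were at least 1370.0-fold higher, at least 499-fold higher and at least 1416-fold higher. P0 library 3 was the lowest for Dmbt1, Lipf and the 3 Dcpp genes, with Dcpp1 at 73.2, 101 and 3.35 CPM. Xirp2, a muscle protein of actin filaments, stood at 0, 0.0845 and 0.0149 CPM at E13.5 and 68.7, 179 and 24.6 CPM at P0 (adjusted p = 1.6e-05). Ucp1 and Pck1, an enzyme of glucose and glycerol synthesis, completed the 12 with Gh, and each had 1 P0 library far above the others: Pck1 was at 100.4, 637 and 0.871 CPM. Without P0 library 2 the log2 fold changes were 10.17 for Ucp1, 9.62 for Pck1 and 7.12 for Gh, all past the threshold, beside 12.31, 11.89 and 11.62 with it.

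Embryonic globins, a steroid enzyme and genes of the eye and nervous system made up the largest falls. Hbb-y, an embryonic beta globin (chr7:103851749-103853216, minus strand), stood at 886, 1742 and 3161 CPM at E13.5 and 0.444, 0.915 and 0.435 CPM at P0, 3179-fold lower (log2 fold change -11.63, SE 0.87, adjusted p = 2.8e-06). Hba-x, its alpha-type partner, stood at 127, 201 and 316 CPM at E13.5 and 0, 0.183 and 0 CPM at P0 (adjusted p = 1.5e-06). Hbb-bh1 was at least 348-fold lower. All 3 were far apart between stages although the E13.5 libraries differed several-fold among themselves, library 3 being the highest for Hbb-y. The adult globin genes Hba-a1, Hba-a2, Hbb-bs and Hbb-bt, near-identical copies in pairs, did not pass the test, and Hba-a1 stood at 178, 359 and 669.9 CPM at E13.5 and 232, 323 and 309.6 CPM at P0. Hsd3b6, a steroid dehydrogenase, stood at 6.99, 11.8 and 19.3 CPM at E13.5 and 0 counts in every P0 library, at least 125-fold lower. Lmx1b, a homeobox factor of limb and brain, stood at 10.1, 22.5 and 8.76 CPM at E13.5 and 0.139, 0.427 and 0.131 CPM at P0 and was 57.7-fold lower (adjusted p = 3.7e-04), and Robo3, an axon guidance receptor, at 81.1, 127 and 17.4 CPM at E13.5 and 0.250, 0.427 and 3.48 CPM at P0. Cryba1 of the lens, and the neural genes Neurog2, Lhx5, Lhx9 and the transcript Gm14204, were highest in E13.5 library 2: Lhx5 stood at 16.1, 34 and 0.654 CPM across the E13.5 libraries. Without that library Cryba1 kept a log2 fold change of -4.88 in place of -11.43, past the threshold, while Neurog2, at -4.40 in place of -6.29 (adjusted p = 0.052), and Lhx9, at -3.12 in place of -5.76 (adjusted p = 0.054), no longer passed.

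**Figure D4:**
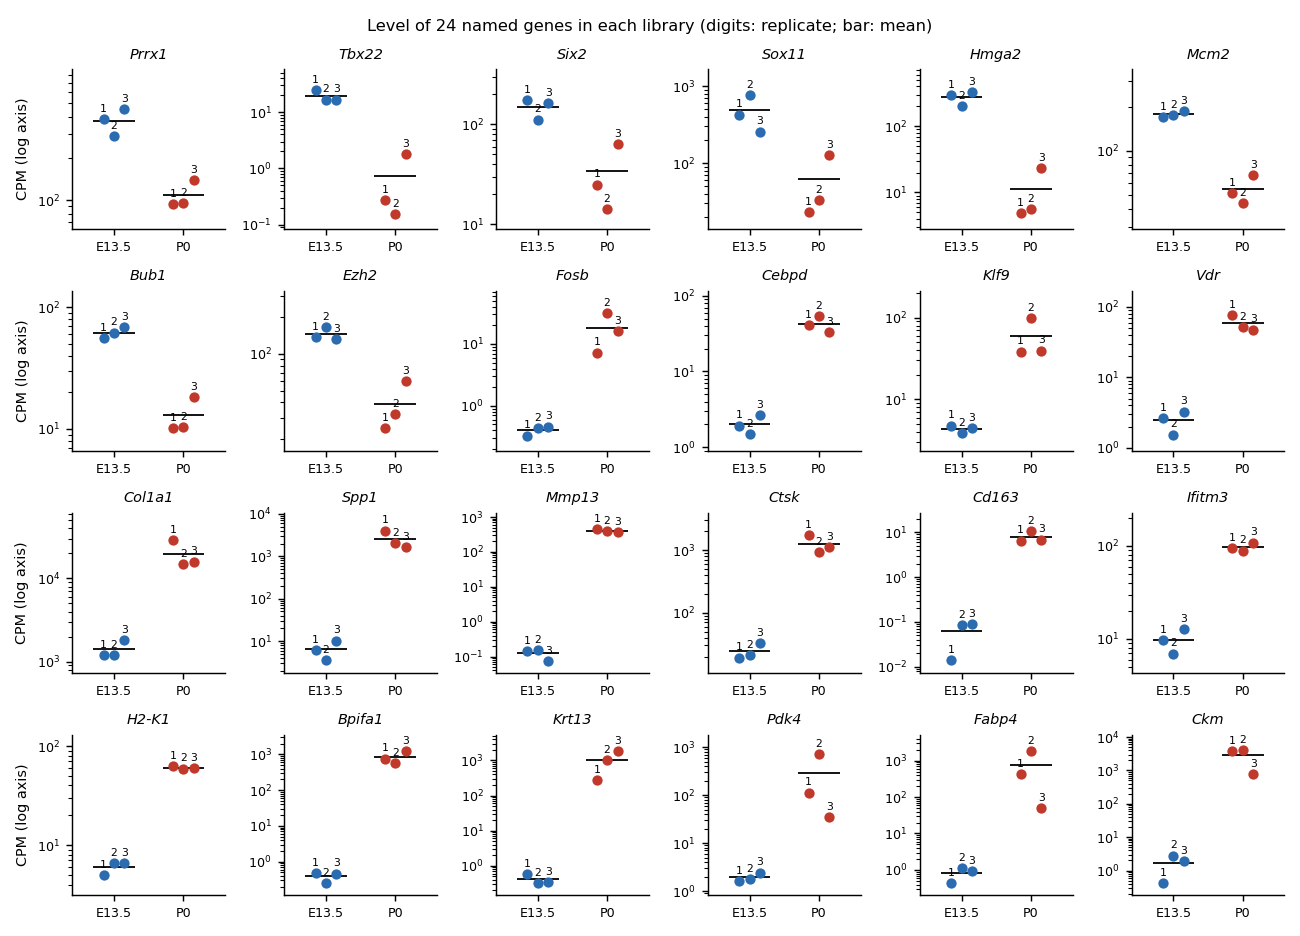
CPM (log axis) of 24 named genes in each of the 3 E13.5 libraries (blue) and 3 P0 libraries (red), digits giving the replicate and bars the mean. Groups do not overlap in any panel; P0 libraries are close together for Mmp13 and H2-K1 and wide apart for Pdk4 and Fabp4.

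Transcription factors of the early palate fell. Of 38 factors known from palate or neural crest mesenchyme, 22 fell and 0 rose, their median log2 fold change being -1.42. Tbx22, a T-box gene whose human counterpart is mutated in X-linked cleft palate (chrX:107667964-107688978, plus strand), stood at 24.7, 16.7 and 16.7 CPM at E13.5 and 0.277, 0.152 and 1.79 CPM at P0, and was 27.4-fold lower (log2 fold change -4.78, SE 0.81, adjusted p = 3.6e-04). Every P0 library was below every E13.5 library, with P0 library 3 the highest of its stage. Prrx1, given above, was 3.43-fold lower (log2 fold change -1.78, SE 0.28, adjusted p = 1.9e-04). Six2, a regulator of mesenchymal progenitors, stood at 174, 112 and 165 CPM at E13.5 and 25, 14.3 and 63.2 CPM at P0 and was 4.41-fold lower (adjusted p = 0.0037). Meis2 fell from 208 ± 44.8 to 49 ± 12 CPM (mean ± SD, n = 3), Mn1 from 154 ± 26.7 to 42.4 ± 11.2 CPM and Gbx2 from 4.5 ± 4.07 to 0.358 ± 0.368 CPM. Pax9, which the series' aims name and whose loss leads to cleft palate in mice, stood at 94.2, 38 and 69.5 CPM at E13.5 and 29, 55.9 and 41 CPM at P0. Its groups overlapped and its difference did not pass the test (log2 fold change -0.68, SE 0.39, adjusted p = 0.15). Without P0 library 3 the list had 29 members lower.

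Among the Sox genes 8 of 19 fell and 3 rose. Sox11, a factor of progenitor cells of mesenchyme and nervous system, stood at 426, 770.4 and 256 CPM at E13.5 and 23.4, 33.1 and 128 CPM at P0 and was 7.89-fold lower (adjusted p = 0.0023). Sox9, the master factor of cartilage, fell from 105 ± 20.6 to 18.3 ± 11.1 CPM, Sox4 from 382 ± 127 to 119.9 ± 40.9 CPM and Sox12 from 214 ± 21.9 to 69.8 ± 17 CPM. The 3 that rose were Sox15, Sox17 and Sox18, the last pair being factors of endothelium: Sox17 rose from 5.64 ± 0.445 to 8.86 ± 1.05 CPM, and without E13.5 library 2 only 1 Sox gene was higher. Of 40 forkhead genes 9 rose and 13 fell, shares of 22.5% and 32.5%, not far from those of all genes. Foxj1, the factor that drives the making of motile cilia, stood at 8.81, 13 and 9.55 CPM at E13.5 and 109.8, 167 and 95.3 CPM at P0, 11.9-fold higher (adjusted p = 2.7e-05), and Foxo3, a factor restrained by growth signals, rose from 83 ± 12.8 to 158 ± 23.9 CPM. Foxp4 fell from 168 ± 20.4 to 69.1 ± 8.55 CPM and Foxk2 from 149 ± 12.8 to 72.3 ± 3.74 CPM. Only 20 of 39 Hox genes could be tested, and 2 of them fell, Hoxc5 and Hoxd3, with 0 lower without E13.5 library 1 and 1 without P0 library 1 or 3.

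Zinc finger genes with a Zfp name, most of them of unknown function and many of the repressor family that carries a KRAB domain, formed the largest group of falls. Of 366 tested 281 fell (76.8%) and 9 rose, at a median log2 fold change of -0.98. Zfp462, a large chromatin-bound zinc finger protein, stood at 216, 273 and 159.6 CPM at E13.5 and 28.8, 40.1 and 48.5 CPM at P0 and was 5.53-fold lower (log2 fold change -2.47, SE 0.37, adjusted p = 1.5e-04). Its E13.5 libraries were all above its P0 libraries. Zfp207 fell from 252 ± 10.3 to 104 ± 31 CPM, Zfp664 from 241 ± 19.6 to 98.1 ± 24.5 CPM and Zfp740 from 238 ± 3.48 to 168 ± 27.9 CPM. Against the direction of the list, Zfp36, an RNA-binding protein that shortens the life of inflammatory mRNAs, stood at 8.61, 6.82 and 9.76 CPM at E13.5 and 31.9, 73.8 and 41.7 CPM at P0 and was 5.85-fold higher (adjusted p = 3.1e-05), and Zfp474, a gene of unknown role, rose from 0.139 ± 0.0302 to 16.8 ± 11 CPM. The median exon length of the list was 4534 bases, and with the length trend removed 275 members were lower. Leaving out 1 library at a time left 264 to 282 members lower.

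Factors of stimulus response and of differentiated cells rose. Of 16 AP-1 and early growth response factors, many of which cells induce within minutes of a stimulus, 14 rose and 1 fell (median log2 fold change 2.67). The fall was Nr4a2, whose call was lost with the length trend removed and in all of the fits without 1 library but that without E13.5 library 3. Fosb, an AP-1 subunit (chr7:19302696-19310051, minus strand), stood at 0.330, 0.437 and 0.461 CPM at E13.5 and 7.27, 31.4 and 16 CPM at P0 and was 44.4-fold higher (log2 fold change 5.47, SE 0.53, adjusted p = 9.7e-06). Atf3, a stress-induced partner of AP-1, stood at 1.79, 1.58 and 2.12 CPM at E13.5 and 41.9, 83.1 and 53.5 CPM at P0, 32.4-fold higher (adjusted p = 1.1e-06). P0 library 2 was the highest of its stage for both, and no E13.5 library came near. Fosl2 rose from 22.8 ± 7.13 to 133 ± 47.2 CPM, Jund from 101 ± 9.36 to 229.9 ± 17.1 CPM, Jun from 78.7 ± 6.12 to 159.8 ± 32.2 CPM and Nr4a1 from 12.3 ± 2.78 to 83.8 ± 22 CPM. In the group of C/EBP, interferon regulatory and STAT factors 15 of 20 rose and 0 fell. Cebpd, an acute phase factor, stood at 1.92, 1.49 and 2.67 CPM at E13.5 and 41.4, 53.4 and 33.4 CPM at P0, 21-fold higher (adjusted p = 4.5e-06), and Stat3, which relays interleukin-6 type signals, rose from 64.3 ± 5.68 to 188 ± 32.1 CPM. Of 16 Krüppel-like factors 10 rose and 4 fell. Klf9, a target of glucocorticoid and thyroid hormone, stood at 4.77, 3.87 and 4.5 CPM at E13.5 and 38.3, 98.9 and 39.4 CPM at P0, 13.4-fold higher (adjusted p = 5.6e-06), and Klf15, another glucocorticoid target, rose from 4.91 ± 0.431 to 43.1 ± 27 CPM. Klf12 fell from 50.6 ± 8.09 to 10.9 ± 3.19 CPM; the number of these factors lower was 2 without E13.5 library 1, E13.5 library 3 or P0 library 2 and in the fit of 6 libraries.

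Nuclear receptors were near the background, with 15 of 42 higher (35.7%, beside 29.8% of all tested genes) and 10 lower (23.8%, beside 26.8%), and without P0 library 1 the number lower was 6. Vdr, the vitamin D receptor of bone and epithelium (chr15:97854425-97910630, minus strand), stood at 2.68, 1.55 and 3.27 CPM at E13.5 and 76, 51.4 and 47.7 CPM at P0 and was 23.3-fold higher (log2 fold change 4.54, SE 0.39, adjusted p = 5.0e-06). Nr2f1 and Nr2f2, orphan receptors of embryonic mesenchyme, fell from 136 ± 26.2 to 32 ± 10.9 CPM and from 101 ± 18 to 39.7 ± 1.91 CPM. Pparg, the receptor that drives fat cell formation, stood at 0.459, 0.366 and 0.520 CPM at E13.5 and 10.8, 48.7 and 3.00 CPM at P0, with P0 library 2 highest. Of 21 epithelial factors 12 rose and 0 fell (1 without P0 library 2), among them Ehf from 10.9 ± 3.09 to 62.8 ± 43.6 CPM and Spdef, a factor of mucous glands, from 0.268 ± 0.0534 to 11.5 ± 4.44 CPM. The E2F and Myc factors, which drive entry into the cell cycle, had 10 of 16 lower and 0 higher (1 without P0 library 2): Mycn fell from 37.8 ± 11.3 to 14.1 ± 4.83 CPM and E2f3 from 56.6 ± 1.64 to 23 ± 0.389 CPM. Of 10 osteoblast factors 5 rose and 1 fell, with 3 higher without E13.5 library 2 and 2 lower without P0 library 3. Among them Sp7, the factor that commits cells to bone, rose from 21.2 ± 9.47 to 83.3 ± 31.6 CPM. Of 11 myogenic factors 4 rose (36.4%) and 3 fell (27.3%), beside 29.8% and 26.8% of all tested genes. Myf6, a late muscle factor, rose from 0.182 ± 0.0507 to 22.9 ± 14.5 CPM, while Pax3, a factor of muscle progenitors, fell from 28.1 ± 6.64 to 1.45 ± 1.00 CPM.

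Bone matrix accounted for the most uniform rise in the matrix class. Of 21 genes of bone matrix and mineralization 20 rose and 0 fell, the median log2 fold change being 3.33. Spp1, osteopontin of bone and osteoclasts (chr5:104435118-104441050, plus strand), stood at 6.08, 3.58 and 10.3 CPM at E13.5 and 4030.1, 2010.1 and 1666 CPM at P0 and was 387-fold higher (log2 fold change 8.59, SE 0.63, adjusted p = 2.5e-06). Col1a1, the main chain of bone and connective tissue collagen (chr11:94936224-94953042, plus strand), stood at 1201, 1203 and 1794 CPM at E13.5 and 28846, 14998 and 15978 CPM at P0, 14.2-fold higher (log2 fold change 3.83, SE 0.35, adjusted p = 7.3e-06). P0 library 1 was the highest for both genes, and the groups lay far apart. Sparc, a collagen-binding glycoprotein, rose from 706 ± 154 to 6610.4 ± 2394 CPM and Col1a2 from 1833 ± 478 to 15891 ± 5119.7 CPM. Mepe, a phosphoprotein of late osteoblasts and osteocytes, was at 0 counts in every E13.5 library and at 7.54, 2.74 and 6.27 CPM at P0, at least 128-fold higher against the floor, and Bglap2, an osteocalcin gene with a near-identical copy, was at least 534-fold higher. Sost, which encodes sclerostin, the Wnt antagonist that the series' aims name, stood at 0.272, 0.282 and 0.713 CPM at E13.5 and 1.11, 1.28 and 0.610 CPM at P0. It passed the test (log2 fold change 1.25, SE 0.37, adjusted p = 0.012) although the groups overlapped, and it did not pass in the fit of the 6 libraries alone.

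Collagens and their partners rose in most cases. Of 44 collagen chains 25 rose and 4 fell, and without P0 library 1 the number lower was 7. Their median log2 fold change was 1.16, and 1.53 with the length trend removed. Col5a3, a minor fibrillar chain, stood at 5.92, 4.83 and 8.5 CPM at E13.5 and 169, 138 and 69.1 CPM at P0, 19.5-fold higher (adjusted p = 2.2e-05). Col3a1 of soft connective tissue rose from 2072 ± 492 to 5023 ± 1012 CPM and Col4a1 of basement membranes from 685 ± 110.3 to 1516 ± 401 CPM. Against the majority, Col26a1 fell from 353 ± 112 to 156 ± 51.6 CPM and Col23a1 from 120.0 ± 36.8 to 64.1 ± 13 CPM. Among 15 small leucine-rich proteoglycans, which bind collagen fibrils, 10 rose and 1 fell (Optc, not without E13.5 library 2): Aspn, asporin, stood at 31.2, 20.2 and 37.3 CPM at E13.5 and 244, 306 and 214 CPM at P0, 8.62-fold higher (adjusted p = 4.2e-05), and Bgn, biglycan, rose from 233 ± 63.9 to 1052 ± 301 CPM. Eln, the elastin gene, rose from 182 ± 46.3 to 1444 ± 471 CPM, and Mfap5 of microfibrils from 1.45 ± 0.357 to 57.8 ± 22.2 CPM, while Fbn2, the fibrillin typical of embryonic tissue, fell from 535 ± 122 to 263 ± 54 CPM; the Fbn2 call was lost with the length trend removed. Of 19 elastic fibre genes 8 rose and 3 fell, the latter being 1 without E13.5 library 3, P0 library 1 or P0 library 2; the median was 0.35, and 0.55 with the length trend removed. Matricellular proteins, which modulate contact of cells with matrix, had 14 of 23 higher, with Tnxb at 1.48, 1.06 and 1.25 CPM at E13.5 and 93.7, 108 and 23.7 CPM at P0 and Postn, periostin, rising from 550.5 ± 149 to 2070.4 ± 467 CPM.

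The hyaluronan matrix and cartilage did not move as 1 group. Among hyaluronan-binding proteoglycans, hyaluronan synthases and hyaluronan enzymes 5 of 19 rose (26.3%) and 7 fell (36.8%). Of all tested genes 29.8% rose and 26.8% fell. Vcan, versican, the large proteoglycan of embryonic mesenchyme (chr13:89655312-89742509, minus strand), stood at 1022, 686 and 967 CPM at E13.5 and 221, 309 and 344 CPM at P0, 3.06-fold lower (log2 fold change -1.61, SE 0.33, adjusted p = 0.0013). Has1, a hyaluronan synthase, stood at 0.0573, 0.0141 and 0.0594 CPM at E13.5 and 2.55, 1.83 and 1.87 CPM at P0, adjusted p = 5.0e-06, and Cd44, a hyaluronan receptor, rose from 21.8 ± 5.67 to 122 ± 32.5 CPM. Of 19 cartilage matrix genes 7 rose (36.8%) and 3 fell (15.8%). The number lower was 7 without P0 library 1 and 1 without any 1 of P0 libraries 2 and 3 and E13.5 libraries 1 and 3. It was 5 with the length trend removed or in the fit of 6 libraries. Col10a1, the collagen of hypertrophic cartilage, stood at 0.201, 0.225 and 0.431 CPM at E13.5 and 71.9, 64 and 16.2 CPM at P0, 177-fold higher (adjusted p = 1.5e-05), and Col11a2 rose from 151 ± 78.9 to 816 ± 361 CPM, whereas Hapln1, the link protein of growing cartilage, fell from 89 ± 34.4 to 24.7 ± 3.2 CPM. The ADAMTS proteases had 5 of 19 higher (26.3%) and 7 lower (36.8%), again beside 29.8% and 26.8% of all tested genes. Their median of -0.29 turned to 0.14 with the length trend removed. Adamts2, a procollagen processor, rose from 39.6 ± 9.28 to 126 ± 22.5 CPM and Adamts6 fell from 29.6 ± 6.6 to 7.55 ± 1.14 CPM. Of 19 matrix metalloproteinases and their inhibitors 13 rose. Mmp9, the gelatinase of osteoclasts and neutrophils, stood at 14.7, 13.6 and 12.6 CPM at E13.5 and 1282, 700.5 and 681 CPM at P0, 65-fold higher (log2 fold change 6.02, SE 0.48, adjusted p = 3.7e-06), and Mmp11 fell from 82.8 ± 19.3 to 28.4 ± 9.14 CPM. Integrins, the receptors for matrix, had 17 of 27 higher, among them Itgb3 of osteoclasts and platelets, from 12.4 ± 2.12 to 83.6 ± 23.5 CPM, and Itga7 of muscle, from 11.8 ± 1.49 to 92.2 ± 47.4 CPM.

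Respiratory metabolism was higher at P0. Of 81 nuclear genes of the respiratory chain 77 rose and 0 fell, their median log2 fold change being 1.33. Atp5b, the catalytic subunit of ATP synthase (chr10:128083273-128090391, plus strand), stood at 860.0, 951 and 950.2 CPM at E13.5 and 2419, 3418 and 1132 CPM at P0, 2.52-fold higher (log2 fold change 1.34, SE 0.36, adjusted p = 0.0067). P0 library 3 was the lowest P0 library and still above E13.5. Uqcrc1 of complex III rose from 183 ± 10.6 to 509.5 ± 271 CPM. Cox8b and Cox7a1, subunit forms of heart, muscle and brown fat, stood higher by far more than the list: Cox8b was at 0.129, 0.211 and 0.193 CPM at E13.5 and 84.4, 186 and 13.4 CPM at P0, 526-fold higher (adjusted p = 5.7e-05). These genes are short (median exon length 1675 bases), and with the length trend removed 75 were higher and 1 lower, with a median of 1.06. Of 25 genes of pyruvate dehydrogenase and the citric acid cycle 21 rose and 0 fell, and without P0 library 2 the number higher was 13. Pdk4, a kinase that shuts off pyruvate oxidation when fat is burned, stood at 1.59, 1.76 and 2.42 CPM at E13.5 and 113, 721 and 34.7 CPM at P0 and was 150.4-fold higher (adjusted p = 6.2e-05). Of the 13 genes encoded in mitochondrial DNA 7 rose, but 4 did in the fit of 6 libraries, 4 without E13.5 library 1 or P0 library 2, and 1 with the length trend removed.

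Genes that take up, burn and store fat rose with wide spread among the P0 pools. Of 32 genes of fatty acid uptake and oxidation 26 rose and 0 fell (1 without P0 library 1), with a median of 2.02, and without P0 library 2 the number higher was 16. Acadl, an acyl-CoA dehydrogenase of the oxidation pathway, stood at 39.8, 34.3 and 48 CPM at E13.5 and 339.6, 968 and 94 CPM at P0, 11.5-fold higher (adjusted p = 0.0014). Fabp4, a fatty acid carrier of fat cells and capillaries, stood at 0.444, 1.14 and 0.936 CPM at E13.5 and 431, 1805 and 49.2 CPM at P0, 904-fold higher (log2 fold change 9.82, SE 1.85, adjusted p = 7.5e-04). In both genes P0 library 2 was the highest and library 3 the lowest. Of 24 genes of fat storage and fat cells 17 rose and 3 fell. The falls were Fasn, Acaca and Elovl6, which build fatty acids: Elovl6 fell from 106 ± 4.69 to 60.4 ± 15.7 CPM, and the calls for Fasn and Acaca were lost with the length trend removed. The summed level of the fat list was 2041, 2174 and 1844 CPM at E13.5 and 4174, 11296 and 1609 CPM at P0, so it overlapped in P0 library 3. Glycogen and creatine genes had 14 of 17 higher and 0 lower. Ckm, the creatine kinase of skeletal muscle, stood at 0.416, 2.82 and 1.89 CPM at E13.5 and 3756, 3984 and 789 CPM at P0, 1664-fold higher (adjusted p = 5.6e-05), and Pygm, muscle glycogen phosphorylase, rose from 6.27 ± 1.37 to 543 ± 375 CPM. Of 20 glycolysis genes 11 rose, with Eno3, the enolase of muscle, at 16.5, 18.8 and 22.7 CPM at E13.5 and 1270.1, 1596 and 324 CPM at P0 and Ldha rising from 462 ± 84.2 to 956 ± 323 CPM.

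Skeletal muscle markers were examined beside these metabolic lists, which share genes with them, such as Ckm. No separate list of fat markers was used, the fat list being itself a metabolic one. All 20 skeletal muscle markers rose, their summed level going from 386, 459.9 and 669.6 CPM at E13.5 to the P0 sums given above, and none was at 0 at either stage. Acta1, skeletal actin, stood at 27.5, 42 and 57 CPM at E13.5 and 10733, 13399 and 2112 CPM at P0, 208-fold higher (adjusted p = 6.4e-05), and Myh8, the perinatal myosin, rose from 32.3 ± 10.9 to 6893 ± 4969.6 CPM. The part of muscle and fat in the metabolic rises was not tested. Without P0 library 2, the richest in both, 69 respiratory chain genes were higher. That fit keeps P0 library 1, with a muscle sum of 45613 CPM, so it cannot separate muscle from the rest. The median log2 CPM difference of that list from E13.5 was 0.65 in P0 library 3, the poorest in both, and 1.76 in P0 library 2.

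Biosynthetic metabolism was lower or divided. Of 30 genes that make nucleotides and folate one-carbon units 18 fell and 1 rose. Cad, the enzyme that opens pyrimidine synthesis, stood at 157, 144 and 154 CPM at E13.5 and 68, 53.5 and 63 CPM at P0, 2.47-fold lower (log2 fold change -1.30, SE 0.12, adjusted p = 8.0e-06), and Pfas of purine synthesis fell from 78.9 ± 2.66 to 23.5 ± 5.92 CPM. The 1 rise was Impdh1, from 44.8 ± 0.816 to 173 ± 104 CPM. Factors that build ribosomes had 23 of 32 lower and 2 higher, and both rises, Nop10 and Nhp2, were lost with the length trend removed and in the fit of 6 libraries, while 1 was higher without E13.5 library 1, E13.5 library 2 or P0 library 1. Npm1, nucleophosmin, stood at 667, 681 and 820.2 CPM at E13.5 and 395, 373 and 471 CPM at P0, 1.75-fold lower (adjusted p = 9.5e-04), and Utp20 fell from 63.5 ± 4.78 to 27.8 ± 6.68 CPM. The proteins of the cytosolic ribosome itself had 69 of 79 higher and 0 lower with a small median of 0.56. That count fell to 33 with the length trend removed, which took the median to 0.27 and left 1 lower, to 37 in the fit of 6 libraries, and to 43 and 44 without E13.5 library 2 or 1. Rplp1 rose from 776 ± 155 to 1309.6 ± 251 CPM, and Rpl3l, a form of muscle, from 0.0336 ± 0.0297 to 16.1 ± 12.8 CPM. Aminoacyl-tRNA synthetases had 10 of 20 lower and 2 higher, among the falls Iars, from 123 ± 3.83 to 73.6 ± 6.22 CPM; the number higher was 0 without E13.5 library 1 and in the fit of 6 libraries, and 1 without E13.5 library 3 or P0 library 1. Cholesterol synthesis showed 5 rises and 5 falls among 24 genes, both shares below those of all genes. The number higher was 3 without E13.5 library 1 and 2 in the fit of 6 libraries, and the number lower was 3 without E13.5 library 2 or P0 library 3, in the fit of 6 libraries and with the length trend removed.

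Detoxifying genes rose more often than they fell. Of 38 cytochrome P450 genes 23 rose and 2 fell, the latter being 5 without P0 library 3 and 4 with the length trend removed. Cyp2f2, a P450 of airway and nasal epithelium, stood at 0.616, 0.592 and 1.63 CPM at E13.5 and 212, 465 and 194 CPM at P0, 307-fold higher (log2 fold change 8.26, SE 0.70, adjusted p = 4.7e-06). Cyp26b1, which breaks down retinoic acid in embryonic tissue (chr6:84571414-84593908, minus strand), stood at 139.6, 123 and 91.4 CPM at E13.5 and 14.3, 14.2 and 16.2 CPM at P0, 7.94-fold lower (log2 fold change -2.99, SE 0.26, adjusted p = 4.9e-06). Neither gene's groups overlapped. Among 46 glutathione and antioxidant enzymes 32 rose and 3 fell, including a rise of Gpx4, which protects membrane lipids, from 91.7 ± 12.9 to 232 ± 58.1 CPM and a fall of Txnrd1 from 183 ± 22.8 to 109.5 ± 20.8 CPM. Solute carriers had 117 of 306 higher (38.2%) and 48 lower (15.7%), beside 29.8% and 26.8% of all tested genes. Among them Slc25a4, the ADP/ATP carrier of muscle mitochondria, rose from 409 ± 33.3 to 1169 ± 492 CPM, and Slc39a10, a zinc importer, fell from 126 ± 7.28 to 35.8 ± 9.24 CPM. The number of solute carriers lower was 30 in the fit of 6 libraries.

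Immune genes rose in nearly every list. Macrophage genes had 21 of 25 higher and 1 lower, at a median log2 fold change of 2.09, or 1.71 with the length trend removed. Cd163, a haemoglobin scavenger receptor of resident macrophages (chr6:124304656-124330527, plus strand), stood at 0.0143, 0.0845 and 0.0891 CPM at E13.5 and 6.49, 10.5 and 6.84 CPM at P0, 123-fold higher (log2 fold change 6.94, SE 0.53, adjusted p = 3.2e-06). Lyz2, lysozyme of myeloid cells, stood at 7.88, 6.69 and 13.5 CPM at E13.5 and 186, 147 and 92.1 CPM at P0, 15.1-fold higher (adjusted p = 4.4e-06). The fall was Cx3cr1, the fractalkine receptor of early tissue macrophages, which stood at 12, 9.03 and 12.2 CPM at E13.5 and 7.02, 4.6 and 5.83 CPM at P0, 1.91-fold lower (adjusted p = 0.0013). Of 13 osteoclast genes 11 rose and 0 fell, with a median of 4.95. Ctsk, the collagen-cutting cathepsin of osteoclasts (chr3:95499256-95509362, plus strand), stood at 19.2, 21 and 32.4 CPM at E13.5 and 1733, 921 and 1111 CPM at P0, 51.9-fold higher (log2 fold change 5.70, SE 0.46, adjusted p = 4.0e-06), and Acp5, their acid phosphatase, rose from 3.15 ± 1.15 to 785 ± 372 CPM. Their fusion receptor Dcstamp stood at 0, 0.0141 and 0.0594 CPM at E13.5 and 19.1, 11 and 12.3 CPM at P0 (adjusted p = 1.4e-05). In Ctsk and Dcstamp no P0 library came near the E13.5 range.

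Mast cell genes had 10 of 12 higher and 0 lower, with a median of 6.90, or 4.22 with members at the floor of E13.5 set to their bound. Hdc, which makes histamine, stood at 1.19, 2.06 and 2.27 CPM at E13.5 and 131, 232 and 108 CPM at P0, 85.4-fold higher (log2 fold change 6.42, SE 0.54, adjusted p = 4.5e-06), and Cma1, a chymase, rose from 0.697 ± 0.494 to 46.8 ± 19.9 CPM. Of 19 monocyte and neutrophil genes 15 rose, among them Ltf, lactoferrin, which glands also make, at 0.473, 0.465 and 1.02 CPM at E13.5 and 139, 243 and 75.5 CPM at P0, 232-fold higher (adjusted p = 5.8e-06). Among lymphocyte genes 9 of 17 rose (52.9%) and 2 fell (11.8%), beside 29.8% and 26.8% of all tested genes. The number lower was 1 without E13.5 library 2, P0 library 1 or P0 library 3. Lck, a T cell kinase, fell from 7.8 ± 1.06 to 2.68 ± 0.527 CPM, and Thy1, which nerves and fibroblasts carry too, rose from 5.28 ± 2.83 to 75 ± 57.3 CPM.

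Antigen presentation and interferon response genes rose as well. Of 16 genes of MHC class I and its peptide loading 14 rose and 0 fell. H2-K1, a classical class I chain whose relatives share sequence with it (chr17:33996017-34000333, minus strand), stood at 5.02, 6.63 and 6.58 CPM at E13.5 and 62.9, 59.3 and 59.5 CPM at P0, 9.96-fold higher (log2 fold change 3.32, SE 0.32, adjusted p = 9.1e-06). Its P0 libraries were almost equal. B2m, the light chain of class I, rose from 52.2 ± 12.3 to 139 ± 16.6 CPM and Tap2, a peptide pump, from 1.61 ± 0.381 to 17.2 ± 4.28 CPM. Of 10 class II genes 7 rose, such as H2-Ab1 from 1.04 ± 0.0400 to 7.77 ± 1.86 CPM. Interferon-stimulated genes had 27 of 30 higher and 0 lower, with a median of 3.02. Ifitm3, a membrane protein that restricts virus entry (chr7:141009586-141010770, minus strand), stood at 9.79, 6.96 and 12.9 CPM at E13.5 and 95.4, 89.1 and 109 CPM at P0, 9.89-fold higher (log2 fold change 3.31, SE 0.34, adjusted p = 1.2e-05). Isg20, an exonuclease, stood at 0.330, 0.394 and 0.505 CPM at E13.5 and 21.2, 23.9 and 12 CPM at P0, 46.2-fold higher (adjusted p = 1.0e-05), and Bst2, tetherin, rose from 6.6 ± 1.43 to 40.6 ± 6.87 CPM. Leaving out 1 library at a time left 26 to 28 of them higher.

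Complement and mucosal defence genes followed. A gene can be in several lists, and the complement list had the same median as the macrophage list, 2.09. Of 25 complement genes 19 rose and 1 fell (Masp2; 2 without P0 library 3), and C1qb, made by macrophages, rose from 14.6 ± 4.21 to 62.2 ± 9.83 CPM. Chemokines had 15 of 24 higher and 3 lower. Those that fell were Cxcl12, Cxcl14 and Ccl25, and Cxcl12, the mesenchymal chemokine that guides progenitors (chr6:117168535-117181367, plus strand), stood at 327, 227 and 340.0 CPM at E13.5 and 129, 137 and 123 CPM at P0, 2.3-fold lower (log2 fold change -1.20, SE 0.24, adjusted p = 0.001). Ccl9 rose from 1.16 ± 0.255 to 33.8 ± 5.37 CPM, and Cxcl17, a mucosal chemokine, was at least 256-fold higher against the floor. Of 54 interleukins and their receptors 30 rose and 5 fell, with Il4ra rising from 14.7 ± 2.8 to 45.2 ± 6.98 CPM and Il17rd, a membrane inhibitor of fibroblast growth factor signalling, falling from 92.6 ± 11 to 35.7 ± 18.8 CPM. Of 19 Toll-like receptors and adaptors 11 rose, among them Myd88 from 10.2 ± 1.81 to 27.4 ± 1.97 CPM. Mucosal defence proteins showed 18 of 21 higher and 0 lower, with a median of 7.55, or 6.43 with members at the floor set to their bound. Bpifa1, a secreted lipid-binding protein of nasal and upper airway epithelium, stood at 0.487, 0.254 and 0.461 CPM at E13.5 and 759, 563 and 1248 CPM at P0, 2131-fold higher (log2 fold change 11.06, SE 1.36, adjusted p = 3.9e-05). Reg3g, an antibacterial lectin, rose from 0.448 ± 0.0789 to 363 ± 180.5 CPM and Muc5b, a gel-forming mucin, from 0.203 ± 0.264 to 323 ± 93.2 CPM.

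Epithelial markers rose beside the mucosal genes. Of 17 markers of stratified epithelium 13 rose, with sums of 377, 328 and 727 CPM at E13.5 and 1683, 4986 and 7182 CPM at P0. Of 12 markers of ciliated and nasal epithelium 12 rose, with sums of 40.3, 39.7 and 39.1 CPM and 609, 1139.6 and 549 CPM. Of 13 tested markers of the cornified layer 13 rose, with sums of 5.96, 5.48 and 5.82 CPM and 51.3, 202 and 237 CPM, and Flg, Sprr2d and Lce1a1 were at 0 counts in every E13.5 library. Of 13 gland markers 8 could be tested, of which 7 rose and 0 fell, and Prol1 and Obp1a were at 0 counts in all 6 libraries. The gland sums were 46.7, 31.9 and 61.8 CPM at E13.5 and 255, 287 and 60 CPM at P0, with P0 library 3 within the E13.5 range. The part of these cell types in the rises of immune and mucosal genes was not tested.

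The promoters of the cornified and mucosal genes, like those of some other lists, carry a TATA box more often than those of all tested genes. Here 3 upstream regions are shown so that the motif can be seen beside the values. Sequences are from RefSeq on GRCm38.p6, the 200 bases before the start of the gene, 5′ to 3′ on its strand. Capitals mark TATAAA on the gene's strand, counted only where it began 40 to 20 bases before the start, and TGANTCA, the AP-1 site, on either strand.
Lor (chr3:92083143-92083342, minus strand): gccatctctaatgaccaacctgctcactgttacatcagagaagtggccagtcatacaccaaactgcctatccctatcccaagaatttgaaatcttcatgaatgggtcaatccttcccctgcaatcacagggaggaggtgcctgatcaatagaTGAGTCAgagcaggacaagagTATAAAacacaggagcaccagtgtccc
Krtdap (chr7:30787705-30787904, plus strand): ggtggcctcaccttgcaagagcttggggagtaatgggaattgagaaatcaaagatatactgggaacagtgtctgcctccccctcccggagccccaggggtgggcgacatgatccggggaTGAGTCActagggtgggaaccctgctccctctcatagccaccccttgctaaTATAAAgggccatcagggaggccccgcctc
Bpifa1 (chr2:154142680-154142879, plus strand): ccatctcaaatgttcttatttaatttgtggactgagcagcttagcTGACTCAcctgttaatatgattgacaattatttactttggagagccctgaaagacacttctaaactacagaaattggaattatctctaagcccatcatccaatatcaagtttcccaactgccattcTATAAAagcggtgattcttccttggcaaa
Lor, loricrin of the cornified envelope, stood at 1.19, 1.14 and 0.743 CPM at E13.5 and 5.38, 1.86 and 24.5 CPM at P0, and Krtdap, a protein of differentiating keratinocytes, at 0.115, 0.310 and 0.668 CPM at E13.5 and 11.3, 7.96 and 81.6 CPM at P0. P0 library 3 was the highest for both, and without it Lor did not pass. These 3 were chosen after their values were seen, since they hold both motifs. All 13 tested cornified layer genes matched a promoter, and 38.5% held TATAAA in that window and 38.5% an AP-1 site in the 300 bases around the start. Among 17 matched mucosal defence genes the shares were 29.4% and 17.6%. Over all 14817 tested genes with a promoter they were 1.94% and 5.78%. High shares were not particular to these 2 lists. TATAAA was held by 25% of 16 matched C/EBP, interferon regulatory and STAT factors, 20% of 10 mast cell genes and 18.8% of 16 skeletal muscle markers. An AP-1 site was held by 20% of 10 mast cell genes and 20% of 10 ciliated and nasal markers. Other lists lay lower, with TATAAA in 0% of 67 respiratory chain genes. A match describes the letters and not the binding of a factor.

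Cell division genes fell. Of 31 DNA replication genes 30 fell and 0 rose (median log2 fold change -1.06), and of 30 mitosis genes 28 fell and 0 rose (median -1.28). Those not called were Gins4, Cdk1 and Ndc80. Mcm2, a subunit of the replicative helicase (chr6:88883474-88898780, minus strand), stood at 169, 176 and 186 CPM at E13.5 and 51.6, 44.1 and 67.9 CPM at P0, 3.25-fold lower (log2 fold change -1.70, SE 0.18, adjusted p = 1.6e-05). Bub1, a kinase of the spindle checkpoint (chr2:127801122-127831865, minus strand), stood at 55.6, 61.9 and 68.4 CPM at E13.5 and 10.2, 10.4 and 18.2 CPM at P0, 4.8-fold lower (log2 fold change -2.26, SE 0.25, adjusted p = 2.0e-05). P0 library 3, which held the least muscle, had the highest level of both among the P0 libraries, and the part of muscle content in these falls was not tested. Mki67, the proliferation antigen, fell from 458 ± 8.9 to 206 ± 62 CPM and Top2a, topoisomerase II, from 442 ± 24.4 to 153 ± 56.7 CPM. Among the inhibitors of cyclin-dependent kinases 3 of 7 rose and 0 fell, and their median of 0.48 went to 0.0972 with the length trend removed: Cdkn1a, which encodes p21, stood at 22.2, 23.5 and 36.6 CPM at E13.5 and 339, 437 and 175 CPM at P0, 11.6-fold higher (log2 fold change 3.53, SE 0.33, adjusted p = 7.4e-06).

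These genes are known targets of E2F factors and of the DREAM complex, which binds the CHR element TTTGAA, often near CCAAT boxes. The upstream regions of 5 are shown in the same way, the first 3 with TTTGAA and CCAAT in capitals and the last 2 with the E2F site TTTGGCGC, each searched on both strands.
Cdk1 (chr10:69352913-69353112, minus strand): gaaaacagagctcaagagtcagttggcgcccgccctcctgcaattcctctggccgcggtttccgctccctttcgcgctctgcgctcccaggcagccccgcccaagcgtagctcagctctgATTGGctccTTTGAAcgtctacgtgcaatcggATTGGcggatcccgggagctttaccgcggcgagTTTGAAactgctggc
Ccnb2 (chr9:70421555-70421754, minus strand): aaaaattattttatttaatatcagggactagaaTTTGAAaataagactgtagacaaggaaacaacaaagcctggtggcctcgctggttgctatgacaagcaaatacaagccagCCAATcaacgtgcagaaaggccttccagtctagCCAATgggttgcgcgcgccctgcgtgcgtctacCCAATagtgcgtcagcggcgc
Top2a (chr11:99024190-99024389, minus strand): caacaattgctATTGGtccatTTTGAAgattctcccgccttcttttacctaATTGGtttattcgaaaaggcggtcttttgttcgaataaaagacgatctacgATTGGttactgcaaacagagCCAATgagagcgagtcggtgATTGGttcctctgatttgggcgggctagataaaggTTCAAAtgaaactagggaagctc
Mcm5 (chr8:75109309-75109508, plus strand): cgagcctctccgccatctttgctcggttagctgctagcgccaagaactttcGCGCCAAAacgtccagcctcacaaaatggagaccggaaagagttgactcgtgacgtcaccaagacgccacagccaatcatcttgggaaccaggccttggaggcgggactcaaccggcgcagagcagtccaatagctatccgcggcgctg
Mcm6 (chr1:128359706-128359905, minus strand): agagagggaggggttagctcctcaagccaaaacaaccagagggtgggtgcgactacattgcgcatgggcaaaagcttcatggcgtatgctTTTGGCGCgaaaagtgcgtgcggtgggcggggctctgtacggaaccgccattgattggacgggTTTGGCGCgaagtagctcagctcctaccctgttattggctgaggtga
Cdk1, the mitotic kinase, stood at 99.9, 108 and 142 CPM at E13.5 and 65.8, 67 and 108 CPM at P0, where P0 library 3 overlapped E13.5, and it did not pass (adjusted p = 0.063). Ccnb2, a mitotic cyclin, stood at 50.4, 54.7 and 68.6 CPM at E13.5 and 31.7, 26.9 and 46.8 CPM at P0, 1.65-fold lower (adjusted p = 0.012), a call that held in 3 of the 6 fits without 1 library. Mcm5, a helicase subunit, stood at 162, 155 and 193 CPM at E13.5 and 54.1, 44.6 and 75.5 CPM at P0, and Mcm6, another, at 218, 195 and 232 CPM at E13.5 and 89.8, 73.7 and 108 CPM at P0. These 5 were picked after seeing which promoters hold the motifs. Of 26 mitosis genes with a promoter, 76.9% held TTTGAA and 76.9% CCAAT in the 300 bases around the start, beside 13.2% and 38% over all tested genes with one. Of 26 DNA replication genes 19.2% held TTTGGCGC, beside 0.830%.

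Fetal and chromatin genes fell alongside. Of 15 oncofetal RNA-binding and high mobility group genes, a set active in embryos and in many tumours, 13 fell and 0 rose. Hmga2, a chromatin protein of embryonic growth and a target of let-7 miRNAs (chr10:120361275-120476469, minus strand), stood at 299, 201 and 326 CPM at E13.5 and 4.88, 5.58 and 23 CPM at P0, 24.9-fold lower (log2 fold change -4.64, SE 0.59, adjusted p = 4.8e-05). Trim71, another let-7 target, stood at 3.01, 2.59 and 2.79 CPM at E13.5 and 0.0832, 0.183 and 0 CPM at P0, 28.7-fold lower (adjusted p = 2.4e-05), and Igf2bp2 fell from 174 ± 17.2 to 70.2 ± 8.02 CPM. Of 22 DNA methylation and Polycomb genes 14 fell and 3 rose. Ezh2, the histone methyltransferase of dividing cells, stood at 136, 164 and 132 CPM at E13.5 and 24.7, 31.9 and 60.0 CPM at P0, 3.71-fold lower (adjusted p = 1.2e-04), while its relative Ezh1, typical of resting cells, stood at 30.1, 26.7 and 27 CPM at E13.5 and 36.9, 43.6 and 42.8 CPM at P0, 1.47-fold higher (adjusted p = 0.0015). Dnmt1, the maintenance DNA methyltransferase, fell from 304 ± 4.17 to 105 ± 25.8 CPM. Imprinted genes of fetal growth were near the background of 29.8% higher and 26.8% lower, with 7 of 21 higher (33.3%) and 6 lower (28.6%); without E13.5 library 2 or P0 library 1 the number higher was 4. H19, a long noncoding RNA, rose from 4105 ± 1228 to 16565 ± 6245 CPM, and Peg10 fell from 465 ± 116 to 83.6 ± 29.7 CPM.

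The timing within the span was described by the median, over a list's members, of the log2 CPM difference from the E13.5 mean, averaged over 3 libraries a stage. Bone matrix stood at 0.37 at E14.5, 2.95 at E15.5 and 3.4 at P0, so most of its difference was present by E15.5. The respiratory chain list was at 0.13 at E15.5 and 1.05 at E16.5, where library 1 stood at 1.77 and the mean without it was 0.69. The fat list was at 0.81 at E15.5, its libraries running from 0.18 to 1.39, and at 2.31 at E16.5. E16.5 library 1 alone stood at 4.57, and the mean without it, 1.18, lay within the E15.5 range. Interferon-stimulated genes were at 0.12 at E14.5, where the libraries (-0.052 to 0.32) overlapped those of E13.5 (-0.41 to 0.19). They then went through 0.96 at E15.5 and 1.90 at E16.5 to 3.00 at P0. Mucosal defence genes were at 0.28 at E14.5 (0.17 without library 3) and 6.31 at P0. DNA replication had dropped to -0.54 by E14.5, stood at -0.47 at E15.5 and ended at -1.14, whereas the Zfp list was at -0.01 at E14.5 and -0.44 at E15.5. These values share the E13.5 libraries as their reference and were not tested.

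**Figure D5:**
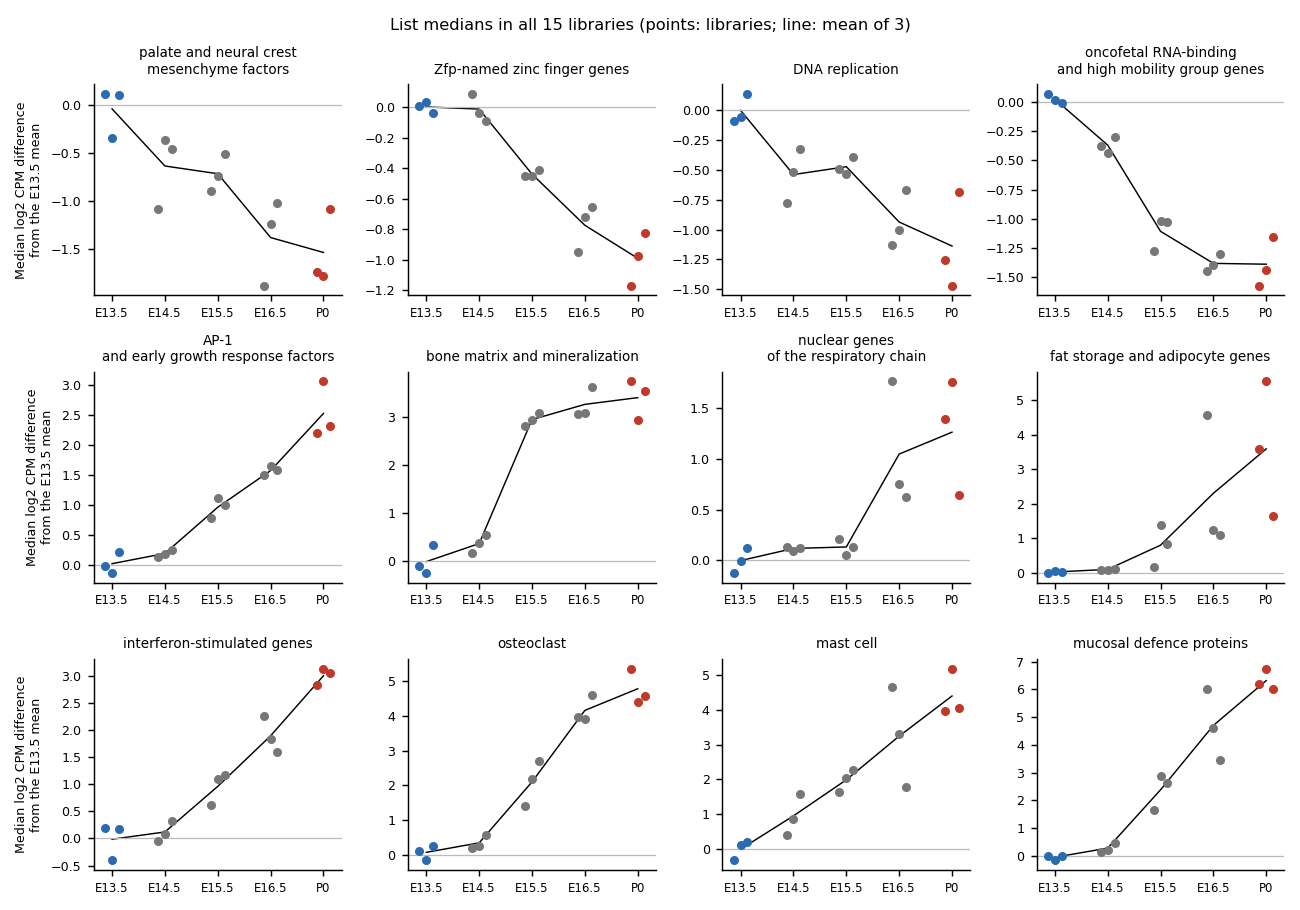
Median over list members of the log2 CPM difference from the E13.5 mean, for 12 lists, in all 15 libraries (points, blue at E13.5, grey between and red at P0), with the mean of each stage's 3 libraries as a line. Bone matrix reached 2.95 at E15.5 and 3.4 at P0, while interferon-stimulated genes went from 0.96 to 3.00 over the same stages.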

How the data were processed

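Counts are the authors' deposited fragment counts per gene, made with featureCounts of Subread 2.0.1 from paired reads on the reverse strand with GENCODE M18, per the file headers; the submitters' processing notes also name cutadapt 3.4, FastQC 0.11.9, Bowtie2, HISAT2 2.2.1, SAMtools 1.12 and the build mm10, in no stated order. Symbols came from GENCODE M21 and positions, on GRCm38, from the count table. edgeR 4.0.16 under R 4.3.3 was used for the main analysis: filterByExpr with stage as the group and a minimum count of 10, TMM scaling, and 1 quasi-likelihood fit to the 15 libraries with a coefficient for each stage. The contrast of P0 with E13.5 gave the p-values, which were adjusted by the Benjamini-Hochberg method over the 22151 tested genes (threshold 0.05). The SE of a log2 fold change is its size divided by the square root of F. CPM use TMM-adjusted totals, and log2 CPM a prior count of 2. Where no library of a stage held more than 3 counts, the fold is a bound, set against the mean over that stage of the level of 3 counts.

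The lists and named genes were chosen with earlier results of these data known. Lists can share members, as with Ckm, so their counts are not separate, while a class counts each gene once. Named were the 12 largest rises and 12 largest falls (adjusted p under 0.05, at least 10 CPM, no overlap), in each list up to 4 called members by level, 2 by fold (at least 1 CPM) and 3 against the majority, and Pax9 and Sost. Outside this rule, Lor, Cdk1, Ccnb2, Ndc80, Gins4, Ddx3y and the adult globin genes were named after their values were seen. A few genes that the rule names are not reported here. The fit was also tested on simulated counts. Alternatives were DESeq2 1.42.0, its size factors or upper-quartile scaling in edgeR, no filter, a mean of at least 1 CPM, a prior count of 0.5 in place of 2 in log2 CPM, the 6 libraries alone, a replicate block, thinning to the smallest total, leaving out each library and, added later, removal of the length trend. RefSeq promoters on GRCm38.p6 run from 250 bases before to 50 after the start; 13324 of 16552 tested protein-coding genes matched by symbol or a unique synonym, and genes on chromosome 18 were not used. Motif shares are given only for lists with at least 80% of members matched.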

Additional observations from a re-analysis of the deposited data

How the results depend on the processing

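The counts of genes higher and lower at P0, plain or at least 2-fold, and those of the 5 classes stayed within 1.5 times in every alternative run: genes higher went from 5391 to 7039 and genes lower from 4644 to 6165, with 6592 and 5943 as reported. With the replicate block 6535 were higher and 6060 lower. Deviations of same-numbered E13.5 and P0 libraries correlated at -0.000393, -0.0475 and 0.0382, within the range of differently numbered pairs (-0.0964 to 0.118). The labels name no pairing, and a shared batch was not tested. Upper-quartile scaling moved the median of all genes from 0.03 to 0.10. With the length trend removed, a step added after the data were seen, the median of the ADAMTS list turned from -0.29 to 0.14, and the log2 fold changes of Slc38a2 and Nop10 turned to 0.0404 and -0.0108, neither past the threshold; the median of the nuclear receptors turned from 0.10 to -0.0222 without P0 library 1, the fits without 1 library reaching 0.183. The cause was not tested. Of 437 named genes 46 were no longer past the threshold in the fit of 6 libraries, 34 besides Slc38a2 and Nop10 with the length trend removed, 1 in DESeq2 and 18 to 48 when 1 library was left out. A prior count of 0.5 in place of 2 raised the size of the log2 CPM difference of 20 named genes and 4 list medians by more than the spread between libraries. The lower totals of the P0 libraries set the floor for genes that fell.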

Other observations

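Small nucleolar RNA genes, which guide the modification of ribosomal RNA and mostly sit in introns of host genes, stood apart from other biotypes. Of 75 tested 51 were lower at P0 (68%) and 0 higher, the median log2 fold change being -1.54. Of 89 transcripts annotated within introns of a gene on its strand 40 were lower (44.9%) and 9 higher, and of 649 genes awaiting experimental checking 223 were lower (34.4%) and 77 higher. Of 1183 long intergenic RNA genes 188 were lower (15.9%, beside 26.8% of all tested genes), and 359 were higher (30.3%), near the 29.8% of all tested genes.

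Markers of further cell types are given by their counts. Of 10 Schwann cell markers 7 rose and 0 fell, of 11 pericyte and smooth muscle markers 9 rose and 1 fell, and of 12 endothelial markers 8 rose and 1 fell, with 5 higher without E13.5 library 2. Neuron markers had 1 of 13 higher and 2 lower. The number higher was 0 without E13.5 library 1, E13.5 library 2 or P0 library 1. The number lower was 1 without E13.5 library 1, E13.5 library 2 or P0 library 2. The neuron sums were 2278, 3268 and 1609 CPM at E13.5 and 5772, 1631 and 1223 CPM at P0, so P0 library 1 was the highest. Brain markers had 1 of 10 higher and 1 lower (3 higher without E13.5 library 3, 3 lower without P0 library 3, and 0 lower without E13.5 library 2, P0 library 1 or P0 library 2), with sums of 57.8, 214 and 143 CPM at E13.5 and 8.82, 387 and 305 CPM at P0. Of 10 olfactory neuron markers 7 rose (4 without P0 library 3) and 0 fell, at a median log2 fold change of 2.75, and of 5 tooth markers 4 rose (2 without E13.5 library 1, E13.5 library 2 or P0 library 3) and 0 fell, at a median of 5.09, or 3.25 with members at the floor set to their bound. Of 12 palate mesenchyme markers 2 rose and 6 fell.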
